A study of Danio rerio with 35 samples.

Results

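The Nanog morpholino comparison at 4 hours post fertilization (hpf) was made up of 8 zebrafish whole-embryo libraries, chosen by their labels from the 35 libraries of the series. Of these 8, 4 came from embryos injected with Nanog MO and 4 from matching embryos without it, which gave 4 pairs of the same background. The backgrounds were TUAB, the wild-type strain, TUAB with SoxB1 MO, MZpou5f1 {hi349Tg/hi349Tg}, and MZpou5f1 {hi349Tg/hi349Tg} with SoxB1 MO. A morpholino (MO) is a synthetic antisense oligonucleotide that blocks translation or splicing of the RNA it pairs with, and SoxB1 MO is the label given for knockdown of SoxB1 factors. MZpou5f1 denotes embryos without maternal and zygotic pou5f1, listed in the annotation as pou5f3, through the insertion allele hi349Tg. Each library was rRNA-depleted total RNA from 5 embryos, and MOs were injected at the 1-cell stage. The labels give no treatment for the TUAB and MZpou5f1 libraries without SoxB1 MO, so in those 2 pairs injection and Nanog MO cannot be told apart. In the other 2 pairs, SoxB1 MO was injected on both sides. Each condition had 1 library, and nothing says that they came from separate clutches. SEs and p-values therefore rest only on the spread of the effect over the 4 pairs. In limma, the spread of each gene is also moderated towards that of other genes of similar level.

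Nanog is a homeodomain transcription factor supplied to the zebrafish egg as maternal RNA. With Pou5f3 and SoxB1 factors it is known for its part in zygotic genome activation, when the embryo begins to transcribe its own genome and stored maternal messages are cleared. The miR-430 microRNAs are among the earliest zygotic products and are known to promote that clearance. In whole embryos, RNA left over from the egg and RNA newly made by the embryo are measured together in exons, while introns report mostly RNA that has not yet been spliced.

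The nanog message itself was at 463, 414, 413 and 394 RPKM (read density of the exons, scaled to transcript length and library size) with Nanog MO in the 4 backgrounds, in the order TUAB, TUAB SoxB1 MO, MZpou5f1 and MZpou5f1 SoxB1 MO, which is used throughout. Without Nanog MO it was at 598, 525, 477 and 452 RPKM. The groups overlapped, and the message did not pass the test (log2 change -0.28 ± 0.07 (SE), adjusted p = 0.0716, limma). An MO that blocks translation need not lower its message, so the level of nanog RNA does not check the labels. At the 64-cell stage, in separate TUAB libraries, nanog had 2415 RPM (reads scaled to library size) among ribosome-protected fragments of wild type (1276 reads, 95% Poisson interval 2284 to 2551). With Nanog and SoxB1 MO together it had 48.9 RPM (37 reads, 34.4 to 67.4). The input RNA of the same embryos held 932 RPM in wild type and 1674 with the MOs. These intervals cover counting error only, and each condition had 1 library. The pou5f3 message was at 0.0880 to 138 RPKM with Nanog MO and at 157, 138, 28.0 and 1.87 RPKM without. The library labelled MZpou5f1 thus held pou5f3 at 28.0 RPKM, against 0.088 to 1.87 RPKM in the other 3 libraries labelled as mutant. Counts below are therefore also given without that pair where enough pairs are left.

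Relative depth, read from the steps between low values, ran from 0.377 to 1.24 of the TUAB library without MO, and the absolute depth is unknown. Summed levels of cell type markers differed without overlap between the groups for some types, and overlapped for others. The summed level of 4 markers of the yolk syncytial layer, a layer of nuclei at the yolk surface, was 1.52 to 3.78 RPKM with Nanog MO and 45.8 to 57.7 RPKM without. Most of that sum was mxtx2, at 1.08 to 3.35 and 40.0 to 55.6 RPKM, while levels of mttp and slc26a1 were under 1 RPKM and overlapped between the groups. For 6 markers of the enveloping layer, the outer epithelium, the sums overlapped, at 18.5 to 104 and 51.4 to 295 RPKM. For 3 markers of deep blastomeres (sox19a, sox3 and tbxt) they were 2.32 to 25.6 and 70.6 to 125 RPKM, but tbxt overlapped, at 0.069 to 0.274 and 0 to 2.24 RPKM. For 5 germ cell markers the sums overlapped, at 598 to 708 and 428 to 606 RPKM, and ddx4 went the other way, at 36.5 to 43.5 and 39.7 to 45.9 RPKM. The genes mxtx1, mxtx2, sox3, sox19a and krt18a.1 are themselves among those called lower below, and buc and dazl among those called higher. They are therefore not independent markers of a cell type here. No marker of these lists was at 0 in more than 1 library. In bulk samples, fewer cells of a type and less RNA per cell cannot be told apart. Whether cell composition had a part in the changes was not tested.

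Of 14498 exon entries tested, 322 were lower and 624 higher with Nanog MO (limma with the pair as a block, adjusted p under 0.05), which are 2.22% and 4.30% of those tested. The lower genes had the larger changes. A mean change of 4-fold or more was found for 136 of the 322 lower genes and for none of the 624 higher genes. There were 144 genes (0.993%) that were called and at least 2-fold lower in each of the 4 pairs, and 72 were at least 4-fold lower in each. Only 32 genes (0.221%) were called and at least 1.5-fold higher in each pair, of which 2 were at least 2-fold higher. Without the MZpou5f1 pair, 172 genes were called lower and 186 higher, while 142 and 36 were called and passed the fold threshold in each of the remaining pairs. The 2 pairs with SoxB1 MO on both sides, taken alone, gave 306 lower and 362 higher, while the 2 pairs without SoxB1 MO gave 147 lower and 9 higher. The median change of all tested genes was 0.02 on the log2 scale. Across genes, changes correlated between pairs with Pearson's r from 0.408 to 0.647 (14498 genes, which are not independent replicates).

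The largest decrease was that of the miR-430 hairpin entry, which covers many near-identical copies whose reads cannot be told apart. With Nanog MO it was at 14.97, 0.681, 4.67 and 1.76 RPKM, and without it at 1406, 1688, 1141 and 831 RPKM. All 4 libraries with Nanog MO were far below all 4 without, and the entry fell by 8.32 ± 0.53 (SE) on the log2 scale (adjusted p = 0.000213). Among transcription factors, her5, a Hairy/E(spl) repressor of the early endoderm and the midbrain-hindbrain region, was at 1.35, 0.806, 0.807 and 1.15 RPKM with Nanog MO and at 128, 111, 165 and 131 RPKM without. The groups were far apart in each background, and her5 fell by 6.46 ± 0.14 (SE) on the log2 scale (adjusted p = 1.56e-06). Its neighbour in the RefSeq annotation (GRCz12tu), her11, fell by 3.54 ± 0.30 (SE) on the log2 scale (adjusted p = 0.000953), from 7.60 to 9.83 RPKM to 0 to 0.745 RPKM. The zinc finger gene blf was at 2.90, 3.17, 1.29 and 1.497 RPKM with Nanog MO and at 189, 160.5, 74.7 and 79.7 RPKM without. The 4 pair differences of blf were close together, and it fell by 5.49 ± 0.10 (SE) on the log2 scale (adjusted p = 7.95e-07). The SoxB1 gene sox3, a regulator of early ectoderm, was at 0.933, 1.47, 0.634 and 1.19 RPKM with Nanog MO and at 43.3, 80.6, 22.9 and 39.0 RPKM without. Levels of sox3 did not overlap, and the fall was 4.80 ± 0.17 (SE) on the log2 scale (adjusted p = 1.41e-05). A further zinc finger gene, znf1127, fell by 4.66 ± 0.55 (SE) on the log2 scale (adjusted p = 0.00477). Its levels were 0 to 0.509 RPKM with Nanog MO and 2.29 to 62.3 RPKM without. Its fall was smallest in the MZpou5f1 SoxB1 MO pair, where its level without Nanog MO was the lowest.

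**Figure D1:**
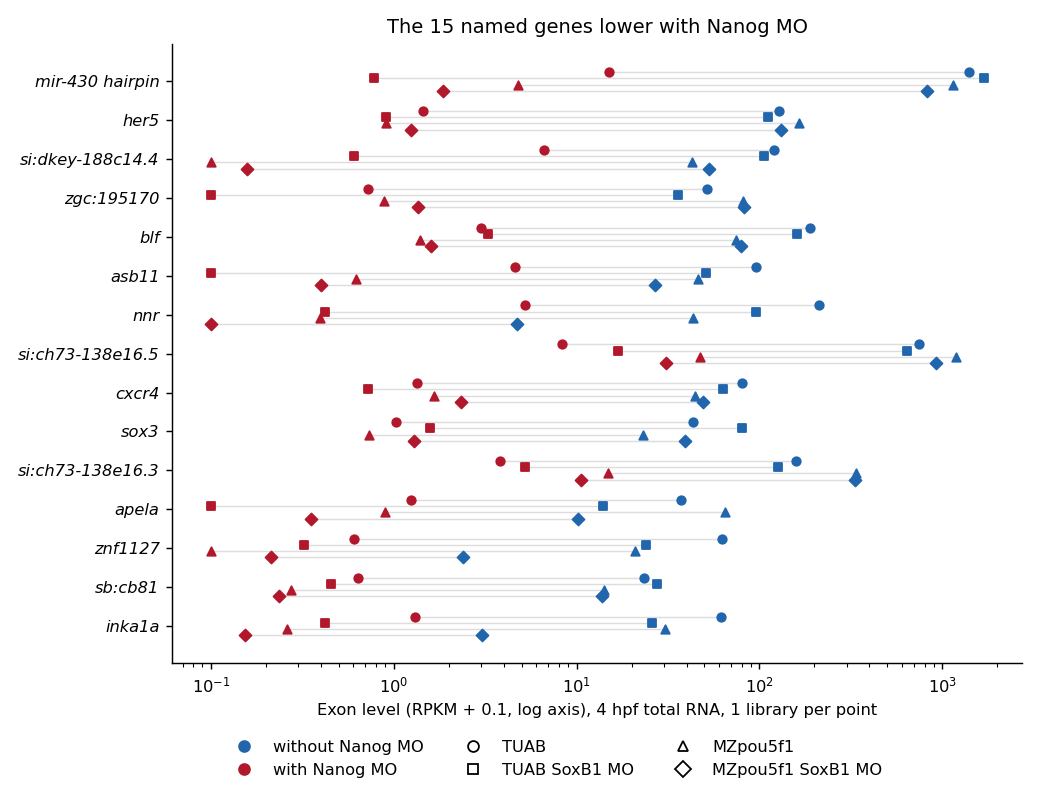
Exon level (RPKM + 0.1, log axis) of the 15 named lower genes in each of the 8 libraries; blue points are libraries without and red points with Nanog MO, point shapes give the background, and grey lines join a pair. Red points lie left of blue points in every pair, and the groups overlap only for nnr, whose highest level with Nanog MO is 5.13 RPKM and lowest level without is 4.62 RPKM.

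Signalling genes were also among the 15 largest decreases. The ligand gene apela, which encodes the Apelin receptor ligand Toddler/Elabela, was at 1.14, 0, 0.795 and 0.253 RPKM with Nanog MO and at 37.2, 13.9, 64.4 and 10.1 RPKM without. No library with Nanog MO reached the lowest without, and apela fell by 4.71 ± 0.27 (SE) on the log2 scale (adjusted p = 0.000141). The entry ENSDARG00000057633 of cxcr4, a chemokine receptor used by migrating cells, was at 1.24, 0.628, 1.56 and 2.23 RPKM with and 80.7, 63.4, 44.1 and 49.2 RPKM without Nanog MO. Its levels did not overlap either, and it fell by 4.998 ± 0.27 (SE) on the log2 scale (adjusted p = 0.000103). The gene asb11, which encodes an ankyrin repeat and SOCS box protein, was at 4.52, 0, 0.519 and 0.302 RPKM with Nanog MO and 95.2, 50.7, 46.2 and 26.9 RPKM without. It fell by 5.39 ± 0.34 (SE) on the log2 scale (adjusted p = 0.000189), least in the TUAB pair. The remaining members were inka1a, nnr, sb:cb81, zgc:195170, si:dkey-188c14.4 and the entries ENSDARG00000095745 and ENSDARG00000040141. Their decreases ranged from 4.59 for inka1a to 5.96 for si:dkey-188c14.4 on the log2 scale. The last 2 carry symbols of the same genomic clone and may share reads, so their separate values are uncertain. Levels did not overlap for 14 of the 15, as was so in this direction for 2.28% of all genes tested. The 15 were chosen by their falls in these same libraries, so the lack of overlap is largely set by that choice. All 15 genes were still called without the MZpou5f1 pair. Neighbouring genes of the draculin family also fell together: drl, drll.1, drll.2 and drll.3 lie next to each other in RefSeq and fell by 2.56, 3.58, 2.74 and 3.69 on the log2 scale (adjusted p = 0.0156, 0.00127, 0.00354 and 0.000617). These 4 and her11 were chosen after their values were seen, and copies of the family may share reads. Without the MZpou5f1 pair, drl was not called.

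Among apelin and chemokine signals, 5 of 7 measured entries fell and none rose (median -2.33, against 0.02 for all genes tested), and the same number was called without the MZpou5f1 pair. For this and the following exon lists, 2.22% of all genes tested were called lower and 4.30% higher. Without that pair, 172 and 186 of the 14498 genes were. Besides apela and the cxcr4 entry above, the other cxcr4 entry was at 11.6, 4.53, 6.17 and 6.70 RPKM with Nanog MO and 88.7, 55.9, 37.3 and 24.2 RPKM without. Every library with Nanog MO was below every library without, and the entry fell by 2.66 ± 0.24 (SE) on the log2 scale (adjusted p = 0.00125). The chemokine ligand cxcl12 fell by 2.33 ± 0.22 (SE) on the log2 scale (adjusted p = 0.00151), with 0 to 0.213 RPKM with Nanog MO and 1.91 to 3.48 RPKM without. The scavenger receptor ackr3, which takes up that ligand, fell by 1.32 ± 0.19 (SE) on the log2 scale (adjusted p = 0.00915). The receptors for Apela did not pass the test, with changes of 0.33 for aplnr and -0.58 for aplnrb.

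In the list of Nodal and dorsal organizer genes, 5 of 13 fell and none rose (median -0.49), with or without the MZpou5f1 pair. The organizer is the dorsal signalling centre of the embryo. The gene chrd, which encodes the BMP antagonist Chordin, was at 0.652, 0.344, 0.686 and 0.611 RPKM with Nanog MO and 14.2, 11.99, 22.7 and 13.6 RPKM without. Its levels were low in all 4 libraries with Nanog MO, and it fell by 3.88 ± 0.16 (SE) on the log2 scale (adjusted p = 3.12e-05). The Nodal antagonist lft2 was at 2.58, 1.33, 6.73 and 2.48 RPKM with Nanog MO and 18.8, 22.2, 31.6 and 27.7 RPKM without, and it fell by 2.92 ± 0.23 (SE) on the log2 scale (adjusted p = 0.000657). The organizer homeobox gene gsc and the forkhead gene foxa3 fell by 2.51 and 2.21 on the log2 scale (adjusted p = 0.00235 and 0.000877). The fifth, the notochord homeobox gene noto, was called with a fall of 1.37, and its levels of 7.08 to 31.1 RPKM with Nanog MO overlapped those of 20.7 to 64.5 RPKM without. The Nodal ligand ndr1 and the co-receptor tdgf1 did not pass, at -0.26 and -0.23.

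Of 12 ventral BMP and Wnt genes, 5 fell and 1 rose (median -0.55), and 4 fell and none rose without the MZpou5f1 pair. The ligand gene bmp2 (ENSDARG00000041430) was at 3.60, 3.25, 1.74 and 1.27 RPKM with Nanog MO and 30.5, 21.8, 15.2 and 10.1 RPKM without. The groups did not overlap, and bmp2 fell by 2.72 ± 0.12 (SE) on the log2 scale (adjusted p = 3.67e-05). The target gene id1, an inhibitor of bHLH factors, was at 30.5, 6.31, 28.3 and 24.2 RPKM with and 154, 52.8, 135 and 79.3 RPKM without Nanog MO, and it fell by 2.30 ± 0.18 (SE) on the log2 scale (adjusted p = 0.000617). The ligand bmp7a and the inhibitory Smad gene smad7 fell by 1.59 and 1.54 (adjusted p = 0.0268 and 0.00215). The only member to rise, id2, rose by 0.49 ± 0.10 (SE) on the log2 scale (adjusted p = 0.0294). Neither bmp7a nor id2 was called without the MZpou5f1 pair. Of 10 genes of FGF signalling, 3 fell and none rose (median -0.38), 2 of them without the MZpou5f1 pair. These were the receptor fgfr4 and the feedback inhibitors dusp6 and spry4, with falls of 2.23, 3.00 and 1.45 (adjusted p = 0.00937, 0.000769 and 0.0218). Of these, spry4 was the one not called without that pair. For dusp6 the levels were 4.03, 0.217, 0.452 and 0.385 RPKM with Nanog MO and 20.8, 9.22, 7.66 and 6.08 RPKM without, with no overlap.

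Genes of mesoderm and endoderm fell in 8 of 13 cases and 1 rose (median -1.35), against 6 and none without the MZpou5f1 pair. Besides blf, the T-box gene tbx16, needed for mesoderm cell movement, was at 0.0990, 0.130, 0.342 and 0.463 RPKM with Nanog MO and 16.8, 7.08, 17.0 and 8.42 RPKM without. Each pair showed a large decrease, and tbx16 fell by 4.01 ± 0.28 (SE) on the log2 scale (adjusted p = 0.000333). The zinc finger entry ENSDARG00000037178 of zic2 fell by 3.73 ± 0.32 (SE) on the log2 scale (adjusted p = 0.00108), and osr1 fell by 1.47 ± 0.19 (SE) on the log2 scale (adjusted p = 0.00707). The member that rose, mespba, went from 0.637 to 2.48 RPKM to 2.11 to 4.39 RPKM, overlapping ranges, with a rise of 0.83 ± 0.19 (SE) on the log2 scale (adjusted p = 0.0451). In the list of neuroectoderm and SoxB1 genes, 8 of 11 fell and 1 rose (median -2.21), and 5 fell and none rose without that pair. The SoxB1 gene sox19a was at 24.5, 4.71, 4.47 and 1.06 RPKM with Nanog MO and 52.2, 44.7, 45.5 and 31.5 RPKM without. All 4 libraries without Nanog MO were above the highest with, yet the fall of 2.94 ± 0.44 (SE) on the log2 scale (adjusted p = 0.0115) varied between pairs. It was not called without the MZpou5f1 pair (adjusted p = 0.0524) or without the TUAB SoxB1 MO pair (0.0517). The maternally supplied SoxB1 message sox19b was at 332, 305, 311 and 302 RPKM with and 325, 336, 305 and 299.9 RPKM without Nanog MO, a change of -0.02 ± 0.07 (SE, adjusted p = 0.911). Both zic2 entries are in this list too. The member that rose was sox21a, by 0.72 ± 0.16 (SE) on the log2 scale (adjusted p = 0.0386). No sox2 entry passed the filter on low values.

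In the yolk syncytial layer list, 2 of 4 genes fell and none rose, with or without the MZpou5f1 pair. Both are homeobox genes of that layer. The gene mxtx2 was at 3.35, 1.797, 2.25 and 1.08 RPKM with Nanog MO and 42.8, 45.6, 40.0 and 55.6 RPKM without. Levels without Nanog MO were alike in all 4 backgrounds, and mxtx2 fell by 4.21 ± 0.24 (SE) on the log2 scale (adjusted p = 0.000141). The related mxtx1 fell by 2.85 ± 0.29 (SE) on the log2 scale (adjusted p = 0.00224). Of 13 enveloping layer and epidermis genes, 3 fell and none rose (median -1.47), 2 without the MZpou5f1 pair. The keratin gene krt18a.1 was at 17.3, 9.13, 23.4 and 10.5 RPKM with Nanog MO and 53.8, 29.1, 138 and 24.1 RPKM without. It fell by 1.73 ± 0.19 (SE) on the log2 scale (adjusted p = 0.00354), while gata3 and klf2a fell by 1.79 and 2.09 (adjusted p = 0.00166 and 0.0151), and klf2a was not called without that pair. The keratin gene krt4 had a larger mean change, -2.70, but did not pass (adjusted p = 0.11), with 0.294 to 2.48 RPKM with Nanog MO and 1.51 to 66.3 RPKM without.

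**Figure D2:**
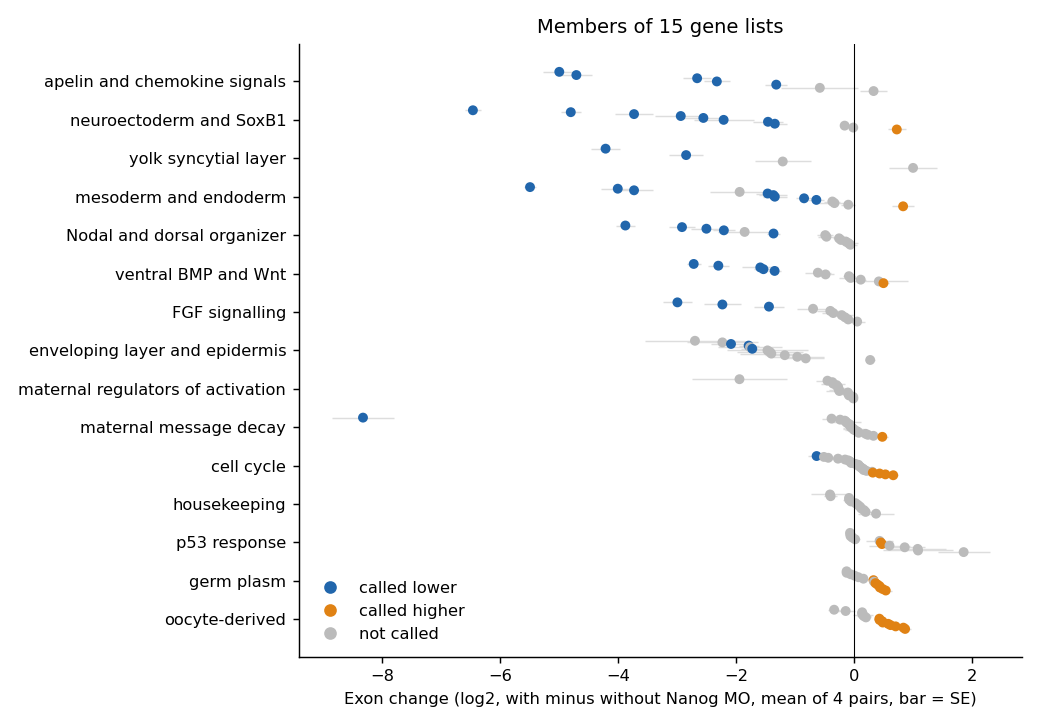
Mean exon change with SE (log2, with minus without Nanog MO, 4 pairs) of each measured member of 15 gene lists; blue points were called lower, orange points called higher and grey points not called. Lists of zygotic patterning genes spread to the left, while the oocyte-derived and germ plasm lists hold calls to the right only.

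Most members of the lists of maternal regulators, message decay genes and more broadly expressed genes did not pass the test. Of 14 maternal regulators of activation and of 12 housekeeping genes none passed the test in either direction at an adjusted p under 0.05 (limma; 6 and 2 at an unadjusted p under 0.05), and of 74 ribosomal protein genes 1 rose and none fell. Among 20 genes of maternal message decay the miR-430 hairpin fell and btg4 rose. With the MZpou5f1 pair left out, the hairpin was called and neither btg4 nor the ribosomal protein gene was. Among 23 cell cycle genes 1 fell, the helicase subunit mcm6 (ENSDARG00000057683) by 0.64, and 4 rose: aurkb, ccnb3, cdk1 and aurka, by 0.66, 0.53, 0.43 and 0.31 on the log2 scale. Of these 5, only aurkb and ccnb3 were called without the MZpou5f1 pair. The medians of these lists lay between -0.27 and 0.07. Missing the threshold does not show that a member was unchanged: the maternal regulator pou5f3 changed by -1.95 without passing.

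Most genes defined as zygotic from other libraries fell. Of 166 tested genes with under 1 RPKM in wild type at 2 hpf, at least 5 RPKM in poly(A)+ RNA at 4 hpf and an at least 4-fold lower level under alpha-amanitin, an inhibitor of RNA polymerase II, 107 were lower (64.5%) and 2 were higher. Of all tested genes, 2.22% were lower and 4.30% higher. Of the 166, 77 (46.4%) were called and at least 2-fold lower in all 4 pairs, against 0.993% of all tested genes. The median change of the 166 was -2.08 on the log2 scale, with quartiles of -3.51 and -0.98. By pair, the medians were -2.30, -2.47, -2.33 and -1.20, so the MZpou5f1 SoxB1 MO pair had the smallest change. In that pair 93 of the 166 were at least 2-fold lower, against 113, 121 and 131 in the others. Of all 14498 genes tested, 436 were at least 2-fold lower in that pair, against 398, 486 and 787 in the others. Without the MZpou5f1 pair, 79 were called lower and 1 higher. None of the libraries that define these genes entered the comparison. The filter on low values passed 166 of the 173 genes that meet the definition.

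**Figure D3:**
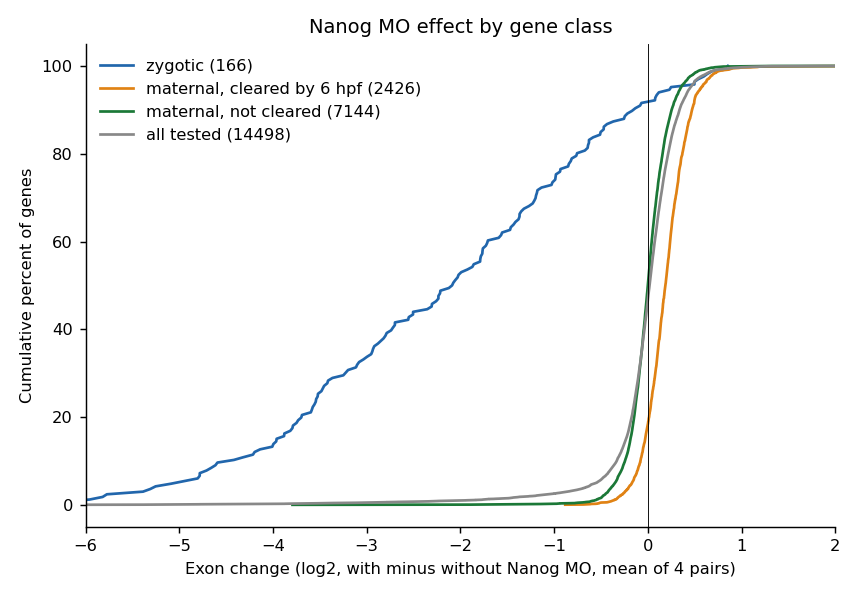
Cumulative percent of genes against mean exon change (log2, with minus without Nanog MO) for zygotic genes, maternal genes cleared by 6 hpf, maternal genes not cleared and all tested genes. The zygotic curve lies far to the left (median -2.08), the curve of cleared maternal genes slightly to the right (median 0.19) and that of the other maternal genes near 0. The axis runs from -6 to 2, so the largest decreases lie outside it.

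Maternal messages made up most of the genes that rose. Of the 624 higher genes, 599 (96.0%) had at least 5 RPKM in wild type at 2 hpf, against 66.0% of all tested genes, and 371 (59.5%) were also at least 4-fold lower in wild type at 6 hpf than at 2 hpf, against 16.7%. Seen the other way, 371 of 2426 such cleared maternal genes rose (15.3%) and 1 fell, while of 7144 maternal genes that were not cleared 228 rose (3.19%) and 51 fell. The rise was small. Cleared maternal genes had a median change of 0.19, and by pair 0.19, 0.16, 0.32 and 0.13. Without the MZpou5f1 pair 107 of the cleared genes were called higher, and none lower.

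Oocyte-derived messages rose or did not pass the test. Of 16 measured, 9 rose and none fell (median 0.43), and 5 rose without the MZpou5f1 pair. The oogenesis-related gene org was at 362, 372, 414 and 459.9 RPKM with Nanog MO and 238, 227, 181 and 239.7 RPKM without. Every library with Nanog MO was above every library without, and org rose by 0.86 ± 0.10 (SE) on the log2 scale (adjusted p = 0.00518). The gene slbp2, which encodes the oocyte histone mRNA stem-loop binding protein, was at 242, 274, 287 and 298 RPKM with and 155, 153, 146 and 163 RPKM without Nanog MO. These levels did not overlap either, and the rise was 0.83 ± 0.07 (SE) on the log2 scale (adjusted p = 0.00125). The meiotic kinase gene mos and zar1l rose by 0.70 and 0.61 (adjusted p = 0.00894 and 0.0151). While 4.30% of all genes tested rose, 7 of 14 germ plasm genes rose and none fell (median 0.33), 3 without the MZpou5f1 pair. They included tdrkh, ca15b, dazl and buc, the last the organizer of germ plasm in the oocyte, with rises of 0.53, 0.48, 0.43 and 0.43, and ca15b and buc are in both lists. Levels of buc were 324, 415, 386 and 418 RPKM with and 249, 358, 229 and 324 RPKM without Nanog MO. These ranges overlapped, and each pair differed in the same direction, but buc was not called without the MZpou5f1 pair, unlike tdrkh, ca15b and dazl. The germ cell helicase ddx4 did not pass, at -0.13.

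The 15 largest increases among called genes ranged from 0.87 to 1.66 on the log2 scale. The relaxin receptor gene rxfp3.3a1 led them, at 6.05, 2.05, 9.33 and 4.05 RPKM with Nanog MO and 1.12, 1.36, 2.09 and 0.467 RPKM without. The groups overlapped only through the TUAB SoxB1 MO library, and the rise was 1.66 ± 0.30 (SE) on the log2 scale (adjusted p = 0.021). The ATP synthase subunit gene atp5mf was at 85.4, 109, 69.1 and 85.4 RPKM with and 41.8, 60.3, 38.9 and 31.1 RPKM without. The lowest value with Nanog MO was above the highest without, and atp5mf rose by 1.03 ± 0.11 (SE) on the log2 scale (adjusted p = 0.00253). The pseudouridine synthase gene trub2 was at 24.6, 33.4, 28.5 and 37.6 RPKM with and 13.6, 19.4, 14.2 and 19.1 RPKM without, with no overlap and a rise of 0.88 ± 0.08 (SE) on the log2 scale (adjusted p = 0.000989). The others included zgc:113425, b3galnt2 (1 of its entries), si:ch211-59h6.1, trappc2l, rmi1, map3k8, ccdc106a, lamtor3, commd4, amt and alkbh2. Groups did not overlap for 5 of the 15, as was so in this direction for 3.28% of all genes tested. These genes too were chosen by their changes in the same libraries. Without the MZpou5f1 pair 11 were still called. Those no longer called were rxfp3.3a1, zgc:113425, map3k8 and alkbh2 (adjusted p = 0.0924, 0.0687, 0.147 and 0.0892). In wild type at 2 hpf, 12 of the 15 had at least 5 RPKM. By contrast, all 15 genes with the largest decreases were under 5 RPKM at 2 hpf, with a median of 0.182 RPKM.

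A larger share of introns than of exons was called lower. Of 4539 intron entries tested, 396 were lower (8.72%) and 27 higher (0.595%), and 248 (5.46%) were called and at least 2-fold lower in each pair. The median intron change was -0.34 on the log2 scale, so intron changes are also given relative to that shift. By pair the medians were 0.08, -0.61, -0.48 and -0.39, so the TUAB pair did not share it. With each library centred on its median, 236 were lower and 70 higher, and after quantile normalization 218 and 120. The share of higher calls therefore depended on the scaling. Without the MZpou5f1 pair 214 were lower, 8 were higher, and 212 were 2-fold lower in each remaining pair. The SoxB1 MO pairs taken alone gave no call in either direction (limma, 1 residual degree of freedom before moderation, 847 entries at an unadjusted p under 0.05). Intron totals per library ran from 6921 to 9172 RPKM with Nanog MO and from 10517 to 16969 RPKM without.

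The named intron decreases were largely those of genes whose exons fell. Introns of ENSDARG00000040141 were at 0.409, 0, 1.72 and 1.37 RPKM with Nanog MO and 51.3, 46.1, 229 and 81.2 RPKM without. They fell by 7.07 ± 0.44 (SE) on the log2 scale (adjusted p = 5.3e-05), or -6.72 relative to the median. The other 7 were cited2, ENSDARG00000095745, asb11, znf1127, zgc:113424, blf and sox19a, with changes from -6.82 to -5.69, and each was called after centring too. Introns of sox19a were at 0, 0, 0.374 and 0 RPKM with Nanog MO and 6.51, 6.31, 15.3 and 5.04 RPKM without. The intron levels of sox19a were near 0 in all 4 libraries with Nanog MO, so their pair differences depend on the 0.1 RPKM added before the log. Their SE of 0.26 is therefore not comparable with that of 0.44 for its exons. Of the 144 genes whose exons were 2-fold lower in all pairs, 118 had introns tested, and the introns of 112 fell, 99 of them after centring. Their median intron change was -3.73, or -3.39 relative to the median of all introns. These exon and intron values come from the same libraries and are not independent.

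Introns also fell for genes whose message was already stored in the egg. Of the 248 intron entries lower in all pairs, 70 belonged to genes with at least 5 RPKM at 2 hpf. Such genes held 3301 of the tested intron entries, and 2.12% of these were called and 2-fold lower in all pairs, a smaller share than the 5.46% of all intron entries. For 54 of these 70 the exons did not pass the test, with a median exon change of -0.14 and a median intron change of -2.63, or -2.28 relative to the median. After centring 47 of the 54 were still called, and without the MZpou5f1 pair 44 were. The nanog gene was among them: its introns were at 3.33, 0.650, 0.493 and 0.330 RPKM with Nanog MO and 31.6, 37.9, 5.16 and 1.25 RPKM without. Intron levels of nanog without Nanog MO were far lower in the MZpou5f1 background, and those of the groups overlapped. The introns fell by 3.42 ± 0.54 (SE) on the log2 scale (adjusted p = 0.00524), and by 3.07 relative to the median. They were not called without the TUAB pair (adjusted p = 0.0633). Introns of pou5f3 were at 0.628, 0.276, 0 and 0.140 RPKM with Nanog MO and 11.9, 24.98, 2.08 and 1.41 RPKM without. Levels did not overlap, and the introns fell by 4.30 ± 0.47 (SE) on the log2 scale (adjusted p = 0.000838). Exons of pou5f3 changed by -1.95 ± 0.81 (SE, adjusted p = 0.203, limma), and by pair by -0.19, -0.31, -5.60 and -1.69. They therefore missed the threshold with a wide spread, and were not unchanged in the MZpou5f1 pairs. The change of -5.60 came from the pair whose MZpou5f1 library without Nanog MO held pou5f3 at 28.0 RPKM, unlike the other libraries labelled as mutant. The gene foxh1, which encodes a transcription factor acting with Smads downstream of Nodal, had introns at 1.97, 1.11, 2.75 and 0.564 RPKM with Nanog MO and 19.3, 37.4, 21.3 and 29.8 RPKM without. No overlap was seen, and they fell by 4.14 ± 0.43 (SE) on the log2 scale (adjusted p = 0.000616), while its exons changed by -0.37 (adjusted p = 0.152). Introns of the Wnt ligand entry ENSDARG00000078507 of wnt8a, the condensin subunit gene ncapd2 and the RNA-binding protein gene lin28a (ENSDARG00000016999) fell by 5.01, 3.24 and 2.94. Their exons changed by -0.49, -0.11 and 0.04, none of which passed. The genes foxh1, wnt8a, ncapd2 and lin28a were chosen after their values were seen. Introns of sox19b did not pass, at 0.18.

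**Figure D4:**
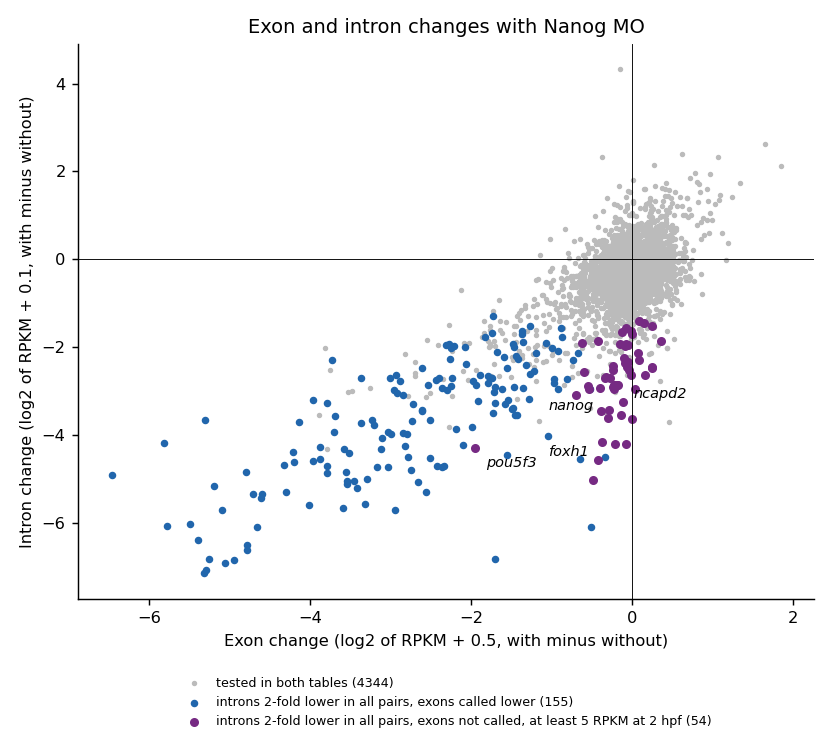
Intron change (log2 of RPKM + 0.1) against exon change (log2 of RPKM + 0.5), with minus without Nanog MO, for 4344 genes tested in both tables. Blue points have introns 2-fold lower in all pairs and exons called lower (155), and purple points are the 54 genes with at least 5 RPKM at 2 hpf whose introns fell while their exons were not called.

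A different set of introns rose. The 8 named were those of rxfp3.3a1, grem1, bbc3, gadd45a, aste1a, tfap2e, actc1a and actc1c, with rises from 1.60 to 2.62. Of these, 4 were called without the MZpou5f1 pair: grem1, tfap2e, actc1a and actc1c. The first was not called after centring (adjusted p = 0.0658), without the TUAB pair (0.14) or without the TUAB SoxB1 MO pair (0.112). Introns of the transcription factor gene tfap2e were at 0.826, 1.22, 1.44 and 1.15 RPKM with Nanog MO and 0.176, 0.232, 0.305 and 0.189 RPKM without, with no overlap and a rise of 1.95 ± 0.25 (SE) on the log2 scale (adjusted p = 0.00164). Of all introns tested, 0.595% rose and 8.72% fell. In the list of p53 response genes, introns of 5 of 12 rose and none fell, with a median of 1.27, or 1.61 relative to the median of all introns. None of the 5 was called without the MZpou5f1 pair. Introns of bbc3, which encodes the pro-apoptotic protein Puma, were at 1.47, 6.53, 3.83 and 0.458 RPKM with Nanog MO and 0.320, 0.444, 0.358 and 0.238 RPKM without. They were highest in the TUAB SoxB1 MO background with Nanog MO and rose by 2.33 ± 0.45 (SE) on the log2 scale (adjusted p = 0.014). The stress gene gadd45a had introns at 2.68, 19.6, 4.17 and 0.803 RPKM with and 0.643, 1.66, 0.637 and 0.498 RPKM without Nanog MO, and they rose by 2.13 ± 0.42 (SE) on the log2 scale (adjusted p = 0.0162). Neither bbc3 nor gadd45a was called without the TUAB pair (0.0719 and 0.0779). The other members were tp53inp1, casp8 and ccng1. In exons, 2 of 13 genes of this list rose, sesn2 and mdm2, by 0.47 and 0.45, and none fell. Of the 2, only sesn2 was called without the MZpou5f1 pair.

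Few exon entries passed the test of a difference in the Nanog MO effect between genotypes. A test of the difference between the 2 MZpou5f1 pairs and the 2 TUAB pairs called 4 of 14498 genes (0.0276%), with 1647 at an unadjusted p under 0.05. The Myc family gene mych was at 12.4, 6.46, 10.2 and 10.8 RPKM with Nanog MO and 84.3, 43.9, 15.1 and 10.5 RPKM without. It was lower with Nanog MO in both TUAB pairs, by 2.72 and 2.67 on the log2 scale, while in the MZpou5f1 pairs it changed by -0.55 and 0.03. The difference between genotypes was 2.44 ± 0.22 (SE, adjusted p = 0.0473). Of the entries called, 3 went the other way. ENSDARG00000089293, for which the tables give no symbol, was at 15.8, 10.6, 52.4 and 52.3 RPKM with Nanog MO and 0.148, 0, 47.8 and 47.6 RPKM without. Among the libraries compared, the entry was near 0 only in the 2 from TUAB without Nanog MO, and its difference was -4.43 ± 0.18 (SE, adjusted p = 0.000979). Wild-type libraries outside the comparison held it at 42.1 RPKM at 2 hpf and at 29.8 RPKM in poly(A)+ RNA at 4 hpf. ENSDARG00000078457 and si:ch211-127n13.3 were also lowest in the 2 TUAB libraries without Nanog MO, with differences of -3.31 and -2.16 (adjusted p = 0.0127 and 0.0366). In the same wild-type libraries outside the comparison they were at 93.3 and 24.2 RPKM, and at 7.58 and 5.16 RPKM. Why the 2 TUAB libraries were low for these entries was not tested. The MZpou5f1 side of this test includes the pair whose library without Nanog MO held pou5f3 at 28.0 RPKM. Without that pair, only the MZpou5f1 SoxB1 MO pair was left on that side, which is too few for a test. The 4 calls therefore cannot be checked without that pair. The differences were then 2.73 for mych and -4.42, -3.15 and -2.14 for the other 3. For SoxB1 MO, the difference between the 2 pairs with and the 2 without called no gene (0.00%; limma, 427 at an unadjusted p under 0.05, smallest adjusted p = 1). The smallest unadjusted p belonged to stm, at 0.197, 0.0650, 0.0200 and 0.197 RPKM with Nanog MO and 15.2, 1.83, 14.5 and 1.89 RPKM without, with a difference of 2.76 ± 0.38 (SE). All levels of stm with Nanog MO were below the 0.5 RPKM added before the log. The size of that difference is therefore largely set by the levels without Nanog MO. With 2 pairs a side, a p that misses the threshold does not show that the effects were alike.

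**Figure D5:**
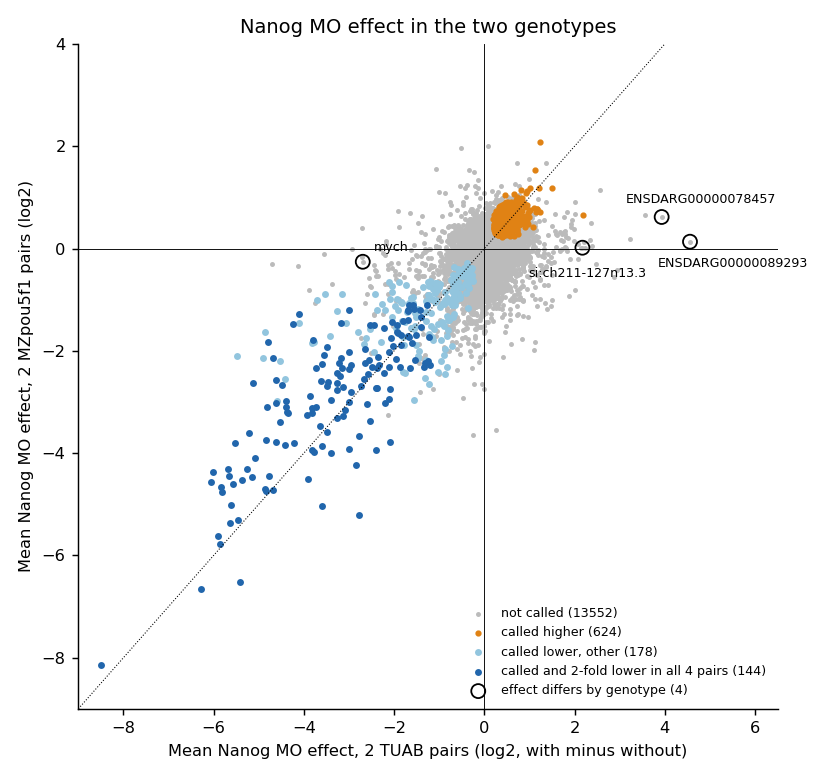
Mean Nanog MO effect (log2, with minus without) over the 2 MZpou5f1 pairs against the mean over the 2 TUAB pairs, 1 point per gene, coloured by call, with the diagonal of equal effect dotted. The 144 genes lower in all pairs (dark blue) spread along the diagonal, and the 4 circled genes, among them mych, lie between -0.26 and 0.62 on the MZpou5f1 axis.

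A separate Nanog MO library at 6 hpf, set against 3 wild-type libraries of that stage, allowed the same genes to be read in samples that the 4 hpf comparison did not use. Of the 144 genes lower in all pairs, 92 (63.9%) were at least 2-fold below the wild-type mean and below each wild-type library, against 5.96% of all tested genes, and their median change was -1.51. Of the 624 higher genes, 287 (46.0%) were at least 2-fold above the mean and above each wild-type library, against 20.9%. The gene cxcr4 (ENSDARG00000057633) was at 1.56 RPKM against 216 ± 68.1 RPKM (SD, n = 3), and blf at 5.43 against 116 ± 50.5 RPKM. Other genes were closer to wild type by then: noto was at 139 against 99.8 ± 9.70 RPKM, and lft2 at 30.1 against 34.4 ± 8.30 RPKM. The oocyte-derived slbp2 was at 89.5 against 9.23 ± 2.58 RPKM. These single-library values have no test.

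Most genes lower in all pairs had little or no RNA before genome activation, and many were above their alpha-amanitin level in cycloheximide. At 2 hpf in wild type their median was 0 RPKM, and 124 of the 144 (86.1%) were under 1 RPKM, against 13.5% of all tested genes. In cycloheximide, which blocks translation, 69 of the 144 (47.9%) were at least 4-fold above the level under alpha-amanitin at 4 hpf, against 4.53% of all tested genes. The same was so for 162 of the 624 higher genes (26.0%), most of which were maternal messages. Passing this rule therefore does not tell new RNA from stored RNA. The gene mxtx2 was at 16.5 RPKM in cycloheximide and 0.0850 RPKM under alpha-amanitin, and irx7, a homeobox gene of the neuroectoderm, at 36.8 and 0.382 RPKM. For tbx16 both values were low, 0.140 and 0.0110 RPKM. In MZpou5f1 embryos with Nanog MO, SoxB1 MO and rescue mRNA, the level of the miR-430 hairpin entry reached 769 RPKM, compared with 1.76 RPKM where no rescue mRNA was given. The latter library is also part of the 4 hpf comparison. In the same libraries blf was at 64.6 against 1.497 RPKM, mxtx2 at 38.0 against 1.08 RPKM, and tbx16 at 2.52 against 0.463 RPKM. The composition of the rescue mRNA is not stated in the labels. With it, nanog was at 2395 RPKM and pou5f3 at 819 RPKM, against 394 and 0.235 RPKM without rescue mRNA. The SoxB1 genes sox3, sox19a and sox19b were at 623, 583 and 574 RPKM, against 1.19, 1.06 and 302 RPKM. Levels in the rescue library therefore cannot be assigned to Nanog alone.

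The threshold of 2-fold in every pair was passed by small margins in some genes. The weakest pair was -1.01 for nfkbiaa, -1.02 for tsc22d3 and -1.02 for znf1089 on the log2 scale, just inside it. Just outside were slc7a8, srsf5a and bambi, at -0.99, -0.99 and -0.98. For increases, cpox and ccdc106a were just inside the 1.5-fold threshold at 0.59 and 0.60, and si:ch211-269k10.5 and rbbp4 just outside at 0.58 and 0.57.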

How the data were processed

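The deposited values were RPKM per exon or intron entry, to 3 decimals, and, for ribosome profiling, a table that its name calls RPKM but whose values are whole multiples of a step per column, that is RPM; reads were recovered from that step. Per the submitters' processing notes, CASAVA 1.8.2, Bowtie 0.12.9 and TopHat2 2.0.7 were used, and genome build Zv9. Library totals, counting and annotation are not given in the sources used here. Entries joining overlapping genes (846 exon, 626 intron) were left out. Gene symbols were found for 72.9% of exon and 75.5% of intron entries, so lists miss unmatched genes; RefSeq gave gene order only.

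Tests used limma 3.58.1 in R 4.3.3 (eBayes with trend) on log2(RPKM + 0.5) for exons and log2(RPKM + 0.1) for introns, with the pair as a block and 3 residual degrees of freedom. Entries needed 1 RPKM (introns 0.5) in at least 2 of the 8 libraries. An entry was called where its two-sided p, adjusted by Benjamini-Hochberg over all entries, was under 0.05. Log2 changes understate those of low genes. Pairs share a background and its label, not replicate numbers. Tests between backgrounds used the 4 pair differences, with 2 residual degrees of freedom. The code was tested on simulated data. Alternatives were other pseudocounts, filters, centring, quantile normalization, an additive model, and left-out pairs.

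Members and gene lists were chosen with earlier results of these data known. Named genes were the 15 largest decreases (2-fold lower in all pairs) and 15 largest increases among called genes with a symbol and a mean of 5 RPKM in the higher group, up to 4 called members per list and direction, the leading genes of each background test, 8 introns per direction, and the targeted factors; genes named after seeing their values are marked so. A gene chosen by this rule is not reported here by name.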

Additional observations from a re-analysis of the deposited data

Results flagged for a closer look

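Of 53 named exon and intron entries, 5 had a pair that stood apart from the other 3, and chance flags about 1 in 20. The exon change of si:dkey-188c14.4 was -4.09 in the TUAB pair, against -6.43 to -6.72 in the others. For sb:cb81 it was -5.04 in the TUAB SoxB1 MO pair, against -4.42 to -4.52. The change of sox19b was -0.14 in that pair, against 0.01 to 0.03. The intron change of asb11 was -4.66 in the TUAB pair, against -6.81 to -7.04. For introns of zgc:113424 it was -3.83 in the MZpou5f1 pair, against -6.73 to -6.99.

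By limma's test of the difference, the Nanog MO effect differed between the MZpou5f1 and TUAB pairs for few entries. These were 4 of 14498 exon and 2 of 4539 intron entries. As MZpou5f1 minus TUAB, the exon differences were -4.43 for ENSDARG00000089293, -3.31 for ENSDARG00000078457, -2.16 for si:ch211-127n13.3 and 2.44 for mych. The intron differences were 8.65 for ENSDARG00000087544 and -8.41 for rpp38. Without the MZpou5f1 pair, only the MZpou5f1 SoxB1 MO pair was left on that side, so the differences alone are given. They were then -4.42, -3.15, -2.14 and 2.73 for the exon entries in that order, and 9.52 and -7.49 for the intron entries. Introns of ENSDARG00000087544 were at 21.9 and 73.3 RPKM in the 2 MZpou5f1 libraries with Nanog MO and at 0 in the other 6. Introns of rpp38 were at 1.41 and 1.85 RPKM in the TUAB libraries with Nanog MO and at 0 in those without, and in MZpou5f1 at 0 with Nanog MO and 3.64 and 0.949 RPKM without. For both entries every pair held a level of 0 RPKM, so the sizes of these differences depend on the 0.1 RPKM added before the log. Neither call held after centring or quantile normalization. Exons of these last entries did not pass the Nanog MO test, with changes of -0.14 and 0.02.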

How the results depend on the processing

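Leaving out 1 pair in turn gave 166 to 379 lower and 119 to 474 higher exon genes, 142 to 199 lower and 36 to 47 higher in all remaining pairs, 214 to 380 lower and 8 to 37 higher introns, and 212 to 317 introns lower in all remaining pairs. With no filter on low values there were 151 lower and 193 higher exon genes, 145 lower and 3 higher introns, and 145 introns lower in all pairs. The TUAB pairs alone gave 177 lower and 49 higher exon genes and 249 lower introns. The MZpou5f1 pairs alone gave 508 lower exon genes, 228 lower and 135 higher in both pairs, and 186 lower and 8 higher introns. Alternatives chosen after seeing the data were the SoxB1 MO pairs alone, with 362 higher exon genes, 89 higher in both pairs, and 0 introns lower, 0 higher and 0 lower in both pairs (limma, 847 at an unadjusted p under 0.05), and the pairs without SoxB1 MO alone, with 147 lower and 9 higher exon genes, 9 higher in both pairs, and 45 higher introns. Centring gave 236 lower and 70 higher introns, quantile normalization 218, 120 and 155 lower in all pairs, and a pseudocount of 0.5 RPKM 157 lower in all pairs. Exon genes lower in all pairs numbered 194 with a pseudocount of 0.1 RPKM and 121 with 1 RPKM. The test by MZpou5f1 background called 7 exon entries with a pseudocount of 0.1 RPKM, 7 with a filter at 5 RPKM and 1 with no filter. For introns it called 0 after centring, after quantile normalization, with a filter at 1 RPKM and with no filter. At an unadjusted p under 0.05 there were 278, 278, 107 and 1015 intron entries (limma). It called 1 intron entry with a pseudocount of 0.05 RPKM and 11 with 0.5 RPKM. Leaving out the MZpou5f1 pair there was also an alternative chosen after seeing the data. It left only the MZpou5f1 SoxB1 MO pair on that side, so no count is given. The cause of these shifts was not tested.

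An additive model of Nanog MO, MZpou5f1 and SoxB1 MO without the pair as a replicate block gave 339 lower and 775 higher exon genes, 144 and 30 in all pairs, 387 lower and 14 higher introns, and 247 introns lower in all pairs. Of the named exon values under all alternatives, 462 stayed on the same side of the threshold, 47 were no longer called and 1 was newly called. Of the named intron values 234 stayed on the same side and 50 were no longer called. None changed direction in a called value, while for values called in neither fit the direction was not counted. Each condition had 1 library, and absolute depth is unknown, so levels near 0 RPKM carry an error that cannot be given.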
